A study of Mus musculus with 16 samples.

Results

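Cardiac myosin is the motor of the heartbeat, and the genes that encode it were followed here across control and CARDINAL knockout mouse hearts with and without pressure overload. The 10 genes were the heavy chains Myh6, Myh7 and Myh7b, the regulatory light chains Myl2 and Myl7, the essential light chains Myl3 and Myl4, the light chain kinase Mylk3, and the myosin-binding proteins Mybpc3 and Mybpc2, found by symbol among the 55487 genes of the count table. CARDINAL is a long noncoding RNA of the heart, listed in the mouse as Gm12295. RNA came from the apex of the heart 4 weeks after surgery, in 4 groups of 4 animals each. The animals were males of 25 to 30 g. Ctrl sham and Ctrl TAC were wild-type, and KO sham and KO TAC carried a knockout of CARDINAL made with CRISPR/Cas9. TAC, transverse aortic constriction, ties the aorta to a needle-wide opening and so loads the left ventricle, and the sham operation left the suture untied. Strain and age are not given in the sources used here.

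Libraries held 53169437 to 79404714 counts, of which 21.9% to 28.8% were mitochondrial. The targeted RNA was at 0.276 to 0.553 CPM (counts scaled to library size) in 7 of the 8 KO libraries and at 2.69 to 8.02 CPM in the Ctrl libraries. The library labelled KO TAC 4 held 4.55 CPM (377 counts), which goes against its label. The animal numbers in the titles begin with 25 for Ctrl TAC 2, Ctrl TAC 3, Ctrl TAC 4 and the library labelled KO TAC 4 and with 3 for all others, and what the numbers stand for is not given in the sources used here. All 18 cardiomyocyte markers fixed for the tissue check were above 1 CPM on average in every group, and their summed level was 33700 to 37200 CPM in the first 3 groups and 32200 to 33000 CPM in KO TAC. In bulk tissue, fewer cardiomyocytes and less RNA per cardiomyocyte cannot be told apart. The summed fibroblast markers were 640 to 773 CPM in sham hearts of both genotypes, 1200 to 1700 CPM in Ctrl TAC and 1960 to 2130 CPM in KO TAC, and the part of that shift in the values below was not tested. The summed macrophage markers were 212 to 284 CPM in sham and 303 to 428 CPM in TAC hearts, the atrial markers 749 to 864 and 896 to 1240 CPM, and the ventricular markers 405 to 574 and 326 to 453 CPM. The atrial sum was higher after TAC although more of its genes were lower than higher at the threshold used below. Smooth muscle markers stood at 241 to 281 CPM in sham and 182 to 240 CPM in TAC hearts, and endothelial markers at 598 to 783 CPM over all libraries.

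In each myosin molecule a pair of heavy chains hydrolyses ATP and pulls on actin, and each heavy chain carries a regulatory and an essential light chain on its neck. The adult mouse ventricle runs mainly on the fast α heavy chain encoded by Myh6, while Myh7 encodes the slower β chain, which dominates before birth and returns under load. Phosphorylation of the regulatory light chain by Mylk3, and the myosin-binding protein C that ties heads to the thick filament, tune how many heads take part in a beat. Thyroid hormone favours Myh6 over Myh7.

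Myh6 and Myh7 lie head to tail on the minus strand of chromosome 14 (GRCm38, GENCODE release 21), Myh6 at chr14:54941921-54966927 and Myh7 at chr14:54970684-54994626. Their coding sequences were 91.7% identical over 5802 aligned bases, with a longest identical run of 245 bases, so how reads were shared between them bears on every value of the pair. Of the 150-base windows of the main transcripts, 5.5% for Myh6 and 6.5% for Myh7 were also found in other transcripts, of each other or of the antisense RNAs at the locus. No window of the other 8 genes was shared in this way. The stretch of 60 coding bases within a single exon where the pair differs most is shown because it is what lets a read be assigned. It holds 24 differing bases, in capitals, and lies in exon 25 of Myh6 (chr14:54952277-54952336) and exon 27 of Myh7 (chr14:54980352-54980411).
Myh6: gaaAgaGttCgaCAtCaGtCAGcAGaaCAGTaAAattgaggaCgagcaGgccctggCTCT
Myh7: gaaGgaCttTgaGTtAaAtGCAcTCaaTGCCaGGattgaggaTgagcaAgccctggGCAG

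Each heavy chain gene also carries a microRNA in an intron, and the mature strands (RefSeq, GRCm38.p6) are shown because the hairpins have rows of their own in the count table. Capitals mark the seed, bases 2 to 8, which was the same in the microRNAs of Myh6 and Myh7 and differed in the last base for that of Myh7b. The hairpin of miR-208a lies in intron 29 of Myh6, that of miR-208b in intron 31 of Myh7 and that of miR-499 in intron 19 of Myh7b.
miR-208a-3p: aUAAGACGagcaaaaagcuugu
miR-208b-3p: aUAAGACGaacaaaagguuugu
miR-499-5p: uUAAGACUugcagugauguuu

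Upstream of the start sites given by RefSeq, both genes hold the letters GGAATG, the core of the MCAT element read by TEAD factors, here in capitals. The element was searched on both strands in the 250 bases before each start, does not overlap other motifs searched, and was found in 12.64% of 32851 such windows of all genes. It lies 206 to 201 bases before the start of Myh6 and 201 to 196 bases before start site 1 of Myh7. The 250 bases before start site 2 of Myh7 do not hold it, and windows of Myl3, Myl7, Mylk3 and Mybpc2 do. The 100 bases around it shown here are chr14:54966758-54966857 for Myh6 and chr14:54994777-54994876 for Myh7, on the minus strand. The Myh6 stretch lies inside the GENCODE span of Myh6, which ends at 54966927, because the RefSeq start used here lies further into the gene. The Myh7 stretch lies outside the GENCODE span of Myh7.
Myh6: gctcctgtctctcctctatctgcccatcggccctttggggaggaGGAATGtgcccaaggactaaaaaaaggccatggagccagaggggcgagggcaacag
Myh7: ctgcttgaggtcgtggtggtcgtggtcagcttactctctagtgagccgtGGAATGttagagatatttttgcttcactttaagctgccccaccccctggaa

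The 10 genes took 3.745% ± 0.166 of all counts in Ctrl sham, 3.667% ± 0.195 in KO sham, 3.763% ± 0.308 in Ctrl TAC and 3.304% ± 0.183 in KO TAC (SD, n = 4). Per kilobase of annotated exons, Myh6 was highest in Ctrl sham hearts at 3658 ± 364 CPM per kb. Myl2 followed at 2542 ± 127 and Myl3 at 1914 ± 94.0 CPM per kb, and Mybpc3 stood at 832 ± 44.8. Next came Myh7 at 168 ± 11.9, Mylk3 at 127 ± 2.84 and Myh7b at 18.1 ± 0.489 CPM per kb. Mybpc2, the skeletal muscle paralog of Mybpc3, was at 3.40 ± 0.359, and the atrial light chains Myl4 and Myl7 were lowest at 0.297 ± 0.0291 and 0.137 ± 0.0926 CPM per kb. No neighbours in this order overlapped in Ctrl sham, and the order of the means was the same in the other 3 groups. Myl2 and Myl3 overlapped in Ctrl TAC (1982 to 2528 against 1795 to 2148 CPM per kb), and Myl4 and Myl7 overlapped in KO sham and Ctrl TAC.

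**Figure D1:**
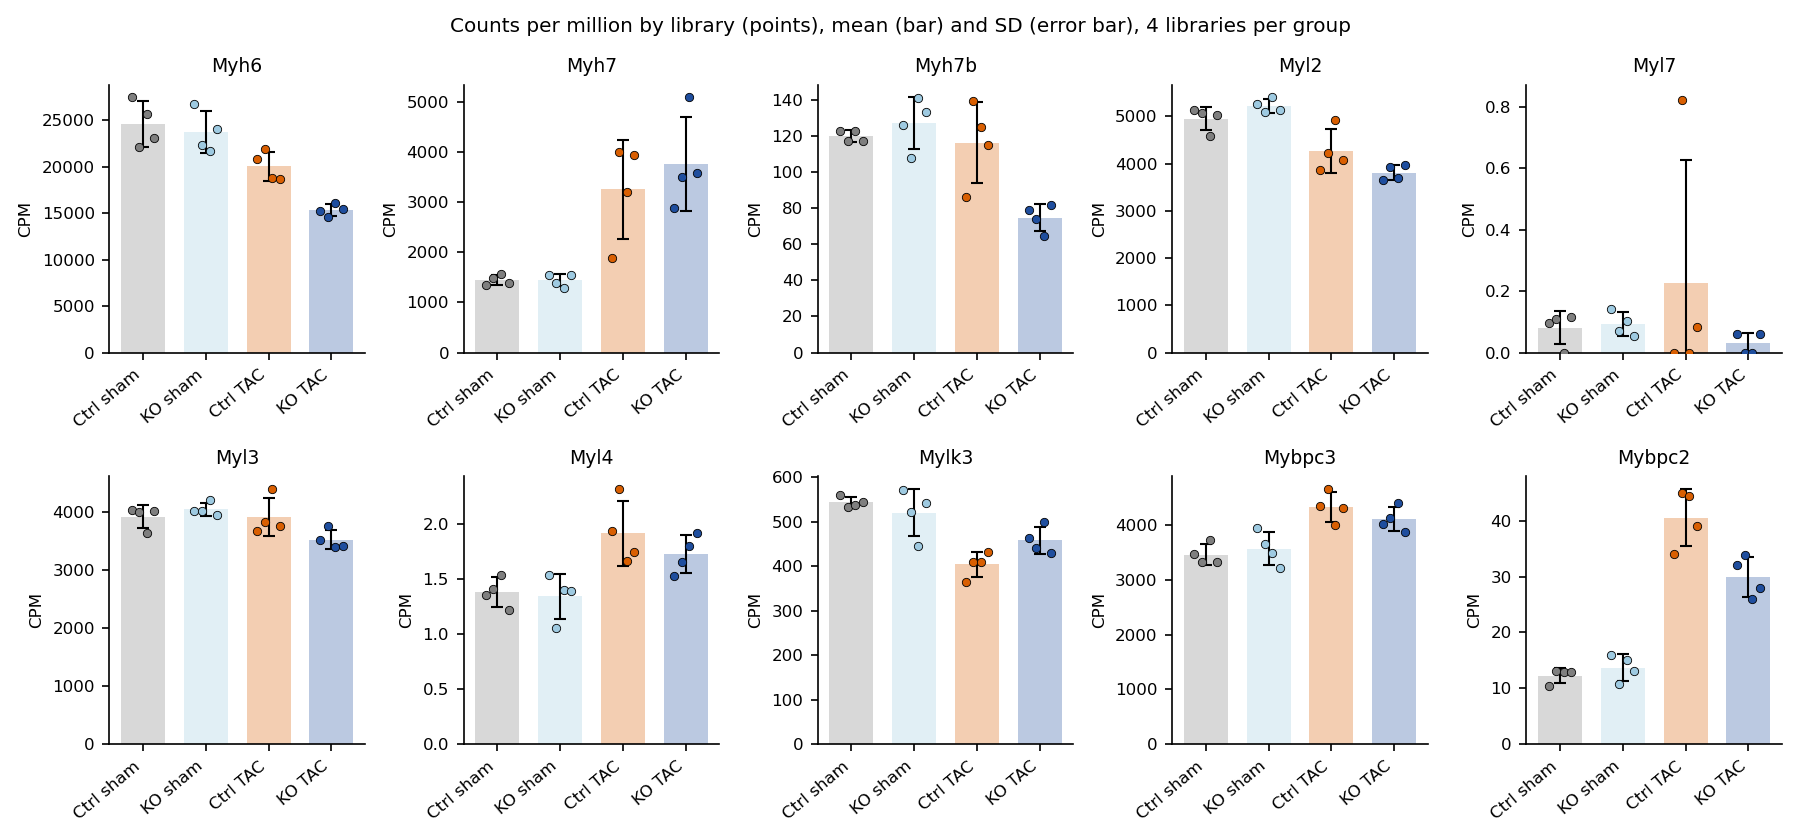
CPM (vertical axis, from 0) of each gene in the 4 groups (horizontal axis), with 4 libraries per group as points, the mean as a bar and the SD as an error bar. KO TAC has the lowest mean for Myh6, Myh7b, Myl2, Myl3 and Myl7, and all its libraries lie below all others only for Myh6 and Myh7b. A single Ctrl TAC library at 0.822 CPM sets the bar of Myl7 in that group.

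TAC against sham within wild-type hearts asks what pressure overload does to the myosin genes. Of the 9 genes that passed the filter on low counts, 7 changed at an adjusted p under 0.05 (edgeR quasi-likelihood test, adjusted over all genes), against 20.0% of the 18275 genes tested. Higher were Myh7, Myl4, Mybpc3 and Mybpc2 (10.4% of all genes were higher), and lower were Myh6, Myl2 and Mylk3 (9.60% of all genes were lower). The median log2 fold change of the 9 was 0.00 and that of all genes was 0.00. In 6 of the 9, no library of one group overlapped with the other, as in 20.5% of all genes. In KO hearts 8 of 9 changed, against 34.3% of all genes, with Myh7, Mybpc3 and Mybpc2 higher (17.8% of all genes) and Myh6, Myh7b, Myl2, Myl3 and Mylk3 lower (16.5%). Groups did not overlap for 6 genes, as for 34.6% of all genes, and the median log2 fold change was -0.18.

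**Figure D2:**
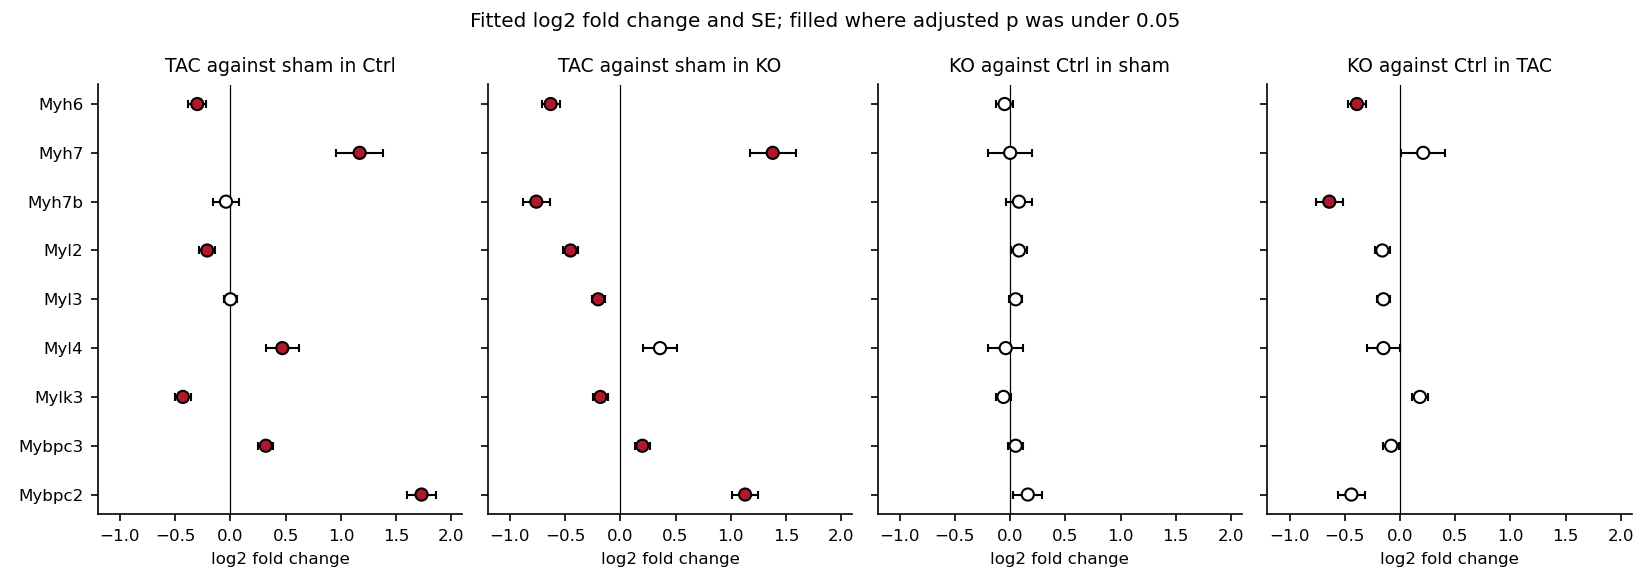
Fitted log2 fold change (horizontal axis) with its SE for the 9 tested genes in 4 comparisons, filled where the adjusted p was under 0.05. Mybpc2 and Myh7 have the highest values after TAC in both genotypes, and Myh6 and Myh7b are the only filled points between KO TAC and Ctrl TAC.

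Myh6, the fast α heavy chain, was at 27490, 22150, 25720 and 23060 CPM in Ctrl sham and at 26730, 22340, 21740 and 24080 CPM in KO sham. It was at 20810, 21920, 18760 and 18690 CPM in Ctrl TAC and at 15200, 14570, 16070 and 15510 CPM in KO TAC. Every Ctrl TAC library was below every Ctrl sham library, and every KO TAC library was below all others. Myh6 fell by 18.5% with TAC in Ctrl (log2 fold change -0.30 ± 0.08 SE, adjusted p = 0.0126) and by 35.4% in KO (-0.63 ± 0.08, adjusted p = 7.84e-06). The call in Ctrl was lost without Ctrl sham 1 (-0.24, adjusted p = 0.0517), on total counts without trimmed-mean scaling (-0.185, adjusted p = 0.0859) and with the number series as a term (-0.28, adjusted p = 0.103).

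Myh7, the slow β heavy chain, was at 1342, 1487, 1572 and 1388 CPM in Ctrl sham and at 1543, 1390, 1296 and 1545 CPM in KO sham. After TAC it was at 1884, 3995, 3202 and 3931 CPM in Ctrl and at 2890, 3494, 5089 and 3580 CPM in KO. All 8 TAC libraries were above all 8 sham libraries, and Ctrl TAC 1 was the lowest of the 8. Myh7 rose 2.25-fold with TAC in Ctrl (1.17 ± 0.21, adjusted p = 0.00116) and 2.61-fold in KO (1.38 ± 0.21, adjusted p = 0.000143). All Ctrl sham animals had numbers beginning with 3, and among the Ctrl TAC animals only Ctrl TAC 1, at 1884 CPM, did so. With the number series as a term, the rise in Ctrl was 0.80 ± 0.27 (adjusted p = 0.0656) and that in KO was 1.29 ± 0.20 (adjusted p = 0.000199).

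Myh7b, an ancestral heavy chain and the host gene of miR-499, was at 122.6, 117.0, 122.8 and 117.2 CPM in Ctrl sham and at 126.0, 107.8, 141.2 and 133.3 CPM in KO sham. It was at 86.21, 139.2, 124.7 and 114.9 CPM in Ctrl TAC and at 78.95, 73.81, 64.77 and 81.62 CPM in KO TAC. The Ctrl TAC libraries lay on both sides of the sham libraries, and all KO TAC libraries lay below every other library. With TAC, Myh7b had a log2 fold change of -0.04 ± 0.12 in Ctrl (adjusted p = 0.841) and fell by 41.1% in KO (-0.76 ± 0.12, adjusted p = 9.10e-05). The TAC effects differed between genotypes by -0.72 ± 0.16 (adjusted p = 0.17, 0.000457 before adjustment). This difference passed in 2 of 25 alternatives, with the DESeq2 Wald test (adjusted p = 0.00812) and without Ctrl TAC 1 (-0.84, adjusted p = 0.0268). With the number series as a term it was -0.524 (adjusted p = 0.36).

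The balance of the α and β chains is read within a library and needs no scaling to depth. Myh7 made up 4.655%, 6.291%, 5.76% and 5.676% of the Myh6 plus Myh7 counts in Ctrl sham and 5.459%, 5.859%, 5.625% and 6.03% in KO sham. It made up 8.303%, 15.41%, 14.58% and 17.38% in Ctrl TAC and 15.97%, 19.34%, 24.06% and 18.76% in KO TAC. All 8 TAC libraries lay above all 8 sham libraries, and KO TAC 3 was the highest. The exact binomial 95% interval of that library ran from 23.98% to 24.13%, so counting error was small beside the spread between animals. The PCR reads are not independent molecules, and these intervals cover counting error alone.

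The mean Myh7 share was 5.6% ± 0.684 in Ctrl sham, 5.74% ± 0.252 in KO sham, 13.9% ± 3.92 in Ctrl TAC and 19.5% ± 3.36 in KO TAC (SD, n = 4). With TAC it rose by 8.32 percentage points in Ctrl and by 13.8 in KO, each with a two-sided exact permutation p of 0.0286, the smallest that 4 against 4 allows, and 0.0714 when adjusted over the 5 comparisons of this share. Sham hearts differed by 0.148 points between genotypes (exact p = 0.771, adjusted 0.771). KO TAC was above Ctrl TAC by 5.61 points, a difference that missed the threshold (exact permutation p = 0.0571, adjusted 0.075), with Ctrl TAC 4 at 17.38% above KO TAC 1 at 15.97%. The TAC effects differed by 5.47 points between genotypes (permutation of genotype within sham and within TAC, p = 0.06, adjusted 0.075). That p is exact only if genotype has no effect at either load. Leaving out Ctrl TAC 1 lowered the genotype difference under TAC to 3.74 points, and leaving out the library labelled KO TAC 4 gave 5.87 points. The difference of the TAC effects was 3.59 points without Ctrl TAC 1. Before adjustment it passed without Ctrl sham 1 (5.78 points, exact p = 0.0359) and without KO TAC 1 (6.65 points, exact p = 0.0359). With 3 libraries against 4, the TAC effect in either genotype cannot go below 0.0571.

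**Figure D3:**
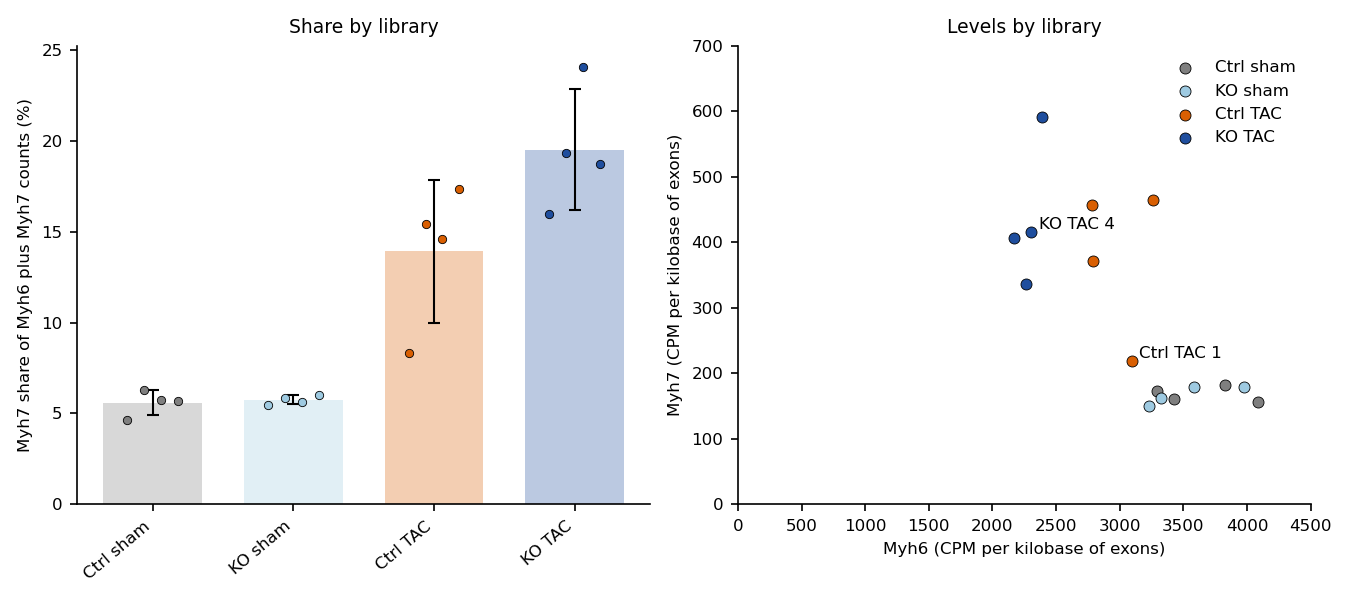
Left, the Myh7 share of Myh6 plus Myh7 counts (%) by group, with libraries as points, the mean as a bar and the SD as an error bar. Right, Myh7 against Myh6 in CPM per kilobase of exons for each of the 16 libraries. Sham libraries lie between 4.655% and 6.291%, KO TAC libraries combine low Myh6 with high Myh7, and Ctrl TAC 1 is the TAC library nearest to the sham hearts.

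The sum of Myh6 and Myh7 was 26050 ± 2430 CPM in Ctrl sham, 25170 ± 2340 in KO sham, 23300 ± 1780 in Ctrl TAC and 19100 ± 1450 in KO TAC. Its KO TAC libraries, at 18060 to 21160 CPM, lay below the Ctrl TAC libraries at 21960 to 25920 CPM. In mean CPM, Myh7 gained less after TAC than Myh6 lost in both genotypes.

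KO against Ctrl asks what loss of the noncoding RNA does at each load. In sham hearts none of the 9 genes was called by edgeR or by DESeq2, and none had an unadjusted p under 0.05. There edgeR called 0% of all genes, with 479 genes at an unadjusted p under 0.05, and DESeq2 called 3. The edgeR calls thus missed the targeted RNA itself, at 3.24 to 3.86 CPM in Ctrl sham and 0.297 to 0.553 CPM in KO sham. The lack of a call in sham therefore does not show the lack of a difference. The log2 fold changes of the 9 ran from -0.06 ± 0.07 for Mylk3 to 0.16 ± 0.13 for Mybpc2, and groups did not overlap for 0 of the 9, as for 1.78% of all genes. After TAC, 2 of 9 were lower in KO, Myh6 (-23.5%, log2 fold change -0.39 ± 0.08, adjusted p = 0.0184) and Myh7b (-35.7%, -0.64 ± 0.12, adjusted p = 0.0142). Of all genes, 2.68% were called in this comparison and 1.32% were called as lower. That count, 489 genes, was itself unsteady: it was 12 once the number series was a term. Leaving out 1 library gave 63 genes without Ctrl TAC 2, 84 without KO TAC 3, 152 without KO TAC 2, 190 without Ctrl TAC 3, 258 without KO TAC 1 and 324 without KO sham 2. The count rose in some other such fits, to 560 without Ctrl sham 1 and to 733 without Ctrl TAC 4. Groups did not overlap for Myh6, Myh7b and Mybpc2, as for 10.5% of all genes, and the median log2 fold change of the 9 was -0.15.

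Both calls under TAC depended on single libraries and on the fit. Without Ctrl TAC 2, Myh6 was at -0.34 (adjusted p = 0.0719) and Myh7b at -0.54 (adjusted p = 0.0529). Myh6 was also lost without KO TAC 2 (-0.36, adjusted p = 0.0603) and Myh7b without KO TAC 3 (-0.57, adjusted p = 0.0545). Without the library labelled KO TAC 4, both remained called (Myh6 -0.39, adjusted p = 0.031; Myh7b -0.68, adjusted p = 0.0166). With the number series as a term they were at -0.40 (adjusted p = 0.102) and -0.44 (adjusted p = 0.104). Myh7b was also lost in a fit to the 8 TAC libraries alone (-0.639, adjusted p = 0.0616), and Myh6 without both Ctrl TAC 2 and the library labelled KO TAC 4 (-0.346, adjusted p = 0.0913). The only KO TAC library of the series numbered from 25 is the one labelled KO TAC 4, and the only Ctrl TAC library of the other series is Ctrl TAC 1, so neither series gives a replicated comparison of genotypes under TAC.

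Myh7 was not shown to differ between genotypes under TAC (0.21 ± 0.20, adjusted p = 0.638), and its TAC effects differed by 0.21 ± 0.29 (adjusted p = 0.845). Mybpc2 was lower in KO TAC in every library but missed the threshold (-0.44 ± 0.12, adjusted p = 0.0592), and it passed with DESeq2 (adjusted p = 0.012) and without Ctrl sham 1, KO sham 2 or Ctrl TAC 1 (adjusted p = 0.0497, 0.0436 and 0.0358). No gene of the 9 was called for a difference of the TAC effects by edgeR, against 0.0109% of all genes. Before adjustment, 6 of the 9 had an edgeR p under 0.05, as had 2024 of the 18275 genes tested. DESeq2 called 1 of the 9, Myh7b, and 132 of all genes.

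Other rows of the table share the heavy chain loci. Mhrt, Gm31251 and Gm29015 are annotated antisense to Myh7 and cover 484, 523 and 142 of its exon bases, in all 13.3%, and Gm49130 covers 114 exon bases of Myh6. Because no source used here says whether counting used strand, reads of Myh7 and of its antisense partners cannot be told apart in the shared bases. Mhrt, a cardiac noncoding RNA, was at 89.7 ± 10.2 CPM in Ctrl sham, 81.5 ± 11 in KO sham, 35.3 ± 3.46 in Ctrl TAC and 26.4 ± 2.62 in KO TAC. It fell by 60.7% with TAC in Ctrl (adjusted p = 2.23e-07) and fell by 67.6% in KO (adjusted p = 8.94e-09), and it was lower in KO TAC than in Ctrl TAC (-25.2%, -0.42 ± 0.10, adjusted p = 0.0394). Gm31251 fell by 41.1% with TAC in Ctrl and fell by 50.5% in KO. Gm49130, antisense to Myh6, fell by 40.1% with TAC in Ctrl (adjusted p = 0.00476) and by 36.1% in KO (adjusted p = 0.00634), as Myh6 did. Gm29015 held 14 to 33 counts per library. It was not called with TAC, at -0.30 ± 0.25 in Ctrl (adjusted p = 0.455) and -0.42 ± 0.25 in KO (adjusted p = 0.225). Mhrt and Gm31251 thus moved against Myh7, whose level rose.

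The hairpin rows showed the same opposition at Myh7. The row of Mir208b, the hairpin of miR-208b, was at 6.79, 5.33, 6.22 and 5.69 CPM in Ctrl sham and at 6.69, 5.06, 4.13 and 5.69 CPM in KO sham. It was at 2.80, 2.99, 2.52 and 2.52 CPM in Ctrl TAC and at 1.68, 1.35, 1.52 and 1.98 CPM in KO TAC. TAC libraries were below all sham libraries, and KO TAC libraries were below all Ctrl TAC libraries. The row fell by 55.0% with TAC in Ctrl (-1.15 ± 0.14, adjusted p = 1.90e-05) and fell by 69.6% in KO (-1.72 ± 0.15, adjusted p = 1.05e-07), and it was lower in KO TAC than in Ctrl TAC (-39.5%, -0.72 ± 0.15, adjusted p = 0.0194). A poly(A) library does not capture mature microRNAs, so this row counts longer RNA that covers the intron, not miR-208b. The row of Mir208a held 9 to 50 counts per library, with a log2 fold change of -0.89 ± 0.32 for TAC in Ctrl (adjusted p = 0.0562), and that of Mir499 held at most 2 counts.

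**Figure D4:**
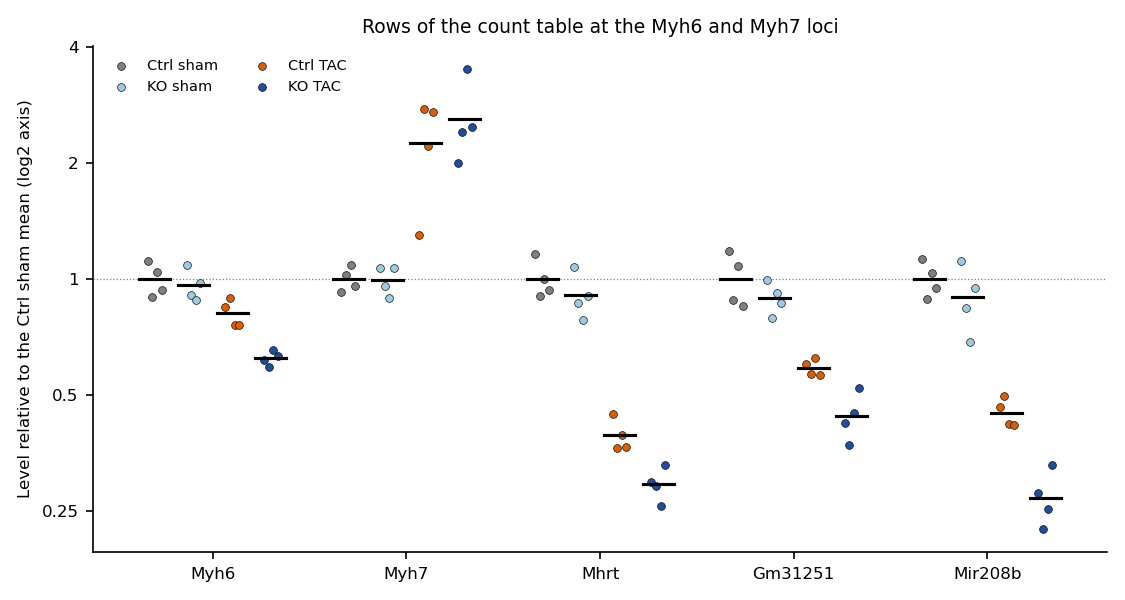
Level of Myh6, Myh7 and 3 further rows at the Myh7 locus (horizontal axis) relative to the Ctrl sham mean of the same row (vertical axis, log2 spacing). Points are libraries and short lines are group means. Myh7 lies above 1 in all TAC libraries, whereas Mhrt, Gm31251 and Mir208b lie below 1 in all of them.

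The regulatory light chain Myl2 is the ventricular form and the substrate of Mylk3. It lay between 4592 and 5145 CPM in Ctrl sham, 5099 and 5406 in KO sham, 3866 and 4929 in Ctrl TAC, and 3654 and 3968 in KO TAC. Myl2 fell by 13.8% with TAC in Ctrl (-0.21 ± 0.07, adjusted p = 0.0272) and by 27.0% in KO (-0.45 ± 0.07, adjusted p = 3.26e-05). The call in Ctrl was lost when any of Ctrl sham 1, Ctrl sham 2, Ctrl sham 4, Ctrl TAC 1 or Ctrl TAC 4 was left out, with log2 fold changes of -0.196, -0.203, -0.208, -0.169 and -0.191, and on total counts (-0.11, adjusted p = 0.176). In that comparison Ctrl TAC 3, at 4929 CPM, overlapped the sham range.

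Its partner Myl3, the ventricular essential light chain, had ranges of 3626 to 4034 CPM in Ctrl sham and 3670 to 4391 CPM in Ctrl TAC, with a log2 fold change of 0.00 ± 0.06. In KO hearts it was at 3936 to 4197 CPM after sham and 3384 to 3749 CPM after TAC, a fall of 13.0% (-0.20 ± 0.06, adjusted p = 0.0134). That fall was lost on total counts (-0.04, adjusted p = 0.6) and on a library size taken from the cardiomyocyte markers (-0.09, adjusted p = 0.252), and with a term for animal numbers beginning with 33 (-0.17, adjusted p = 0.147). Between KO TAC and Ctrl TAC neither light chain passed, with -0.16 ± 0.07 for Myl2 (adjusted p = 0.18) and -0.15 ± 0.06 for Myl3 (adjusted p = 0.167).

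Since ratios within a library need no scaling, Myl2 was also set against Myl3 per kilobase, a ratio chosen after the values were seen and given without a test. The ratio was 1.32 to 1.34 in Ctrl sham and 1.33 to 1.37 in KO sham. It was 1.10 to 1.18 in Ctrl TAC and 1.09 to 1.22 in KO TAC. Sham and TAC libraries did not overlap in either genotype, and the means of the TAC groups, 1.14 ± 0.0315 and 1.14 ± 0.0599, were alike. The absolute ratio depends on the annotated exon length.

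The atrial forms were close to absent from these apex samples. Myl4, the essential light chain of the atria and of the fetal ventricle, held 60 to 159 counts per library. It was at 1.21 to 1.54 CPM in Ctrl sham, 1.05 to 1.53 in KO sham, 1.66 to 2.32 in Ctrl TAC and 1.53 to 1.92 in KO TAC. It rose 1.39-fold with TAC in Ctrl (0.47 ± 0.15, adjusted p = 0.036), a call lost without Ctrl sham 1, Ctrl sham 2, Ctrl sham 4, Ctrl TAC 1 or Ctrl TAC 2 (log2 fold changes of 0.461, 0.482, 0.418, 0.466 and 0.366). It was also lost with the number series as a term (0.402, adjusted p = 0.219), with the term for numbers beginning with 33 (adjusted p = 0.0604), in a fit to the 8 Ctrl libraries (adjusted p = 0.0735) and with no filter (adjusted p = 0.0734). In KO it was at 0.36 ± 0.15 (adjusted p = 0.0773).

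Myl4 made up 0.0353% ± 0.00513 of Myl3 plus Myl4 counts in Ctrl sham, 0.0332% ± 0.00512 in KO sham, 0.0493% ± 0.00968 in Ctrl TAC and 0.0492% ± 0.00638 in KO TAC. The share was 0.0140 points higher after TAC in Ctrl (exact permutation p = 0.0571, adjusted 0.143) and 0.0160 points higher in KO (exact permutation p = 0.0286, adjusted 0.143). It did not differ detectably between genotypes in sham (exact p = 0.6) or under TAC (exact p = 1).

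Myl7, the atrial regulatory light chain, held at most 9 counts in 15 of the 16 libraries and 0 in 5 of them, and it was not tested across genes. Ctrl TAC 2 held 55 counts, or 0.822 CPM, against 0.0000 to 0.0836 CPM in the other Ctrl TAC libraries. Its share of Myl2 plus Myl7 counts was 0.0194% in that library (exact 95% interval 0.0146% to 0.0253%) and at most 0.00271% elsewhere. In the 5 libraries at 0, 3 counts would be a share of 0.000925% to 0.00137%. No comparison of this share passed (exact permutation p from 0.2 to 0.886, adjusted p = 0.886 for all 5). Of the 15 atrial markers, 4 or 5 were under 1 CPM on average in each group, among them Sln, Bmp10 and Mybphl, with group means of at most 0.0336, 0.0975 and 0.110 CPM. The others were not near 0, and the summed level of the list, 749 to 864 CPM in sham and 896 to 1240 CPM in TAC hearts, was higher after TAC. The single markers did not follow the sum. Of the 11 tested, 2 were called higher and 5 lower with TAC in Ctrl, against 10.4% and 9.60% of all genes. In KO, 3 were called higher and 5 lower, against 17.8% and 16.5% of all genes. In Ctrl TAC 2, the skeletal heavy chain Myh4 was at 1.81 CPM and Sln at 0.135 CPM, the highest values of either gene in the 16 libraries.

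Mylk3, the cardiac kinase that phosphorylates the regulatory light chain, was at 533.3 to 561.0 CPM in Ctrl sham and 365.5 to 431.4 CPM in Ctrl TAC. It fell by 25.7% with TAC in Ctrl (-0.43 ± 0.07, adjusted p = 0.000248) and remained called under every alternative tried. In KO it was at 446.4 to 572.5 CPM after sham and 430.5 to 500.3 CPM after TAC, a log2 fold change of -0.18 ± 0.07 at the threshold (adjusted p = 0.0492). This call was lost in 20 of 26 alternatives, among them 13 of the 16 that leave out a single library and total counts (-0.02, adjusted p = 0.862). Without KO sham 1 it was -0.13 (adjusted p = 0.177). The difference between these TAC effects was 0.25 ± 0.10 (adjusted p = 0.358). Between KO TAC and Ctrl TAC the kinase missed the threshold (0.18 ± 0.07, adjusted p = 0.161). Among 26 alternatives it passed only on the cardiomyocyte-marker scale (0.30, adjusted p = 0.0176).

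Mybpc3 encodes the cardiac myosin-binding protein C, the gene most often mutated in hypertrophic cardiomyopathy together with MYH7. It was at 3327 to 3726 CPM in Ctrl sham and 4009 to 4668 CPM in Ctrl TAC, a rise of 25.2% (0.32 ± 0.07, adjusted p = 0.00188). In KO it rose by 15.1%, from 3212 to 3946 CPM to 3881 to 4407 CPM (0.20 ± 0.07, adjusted p = 0.0241). That call was lost without KO sham 3, KO sham 4 or KO TAC 3 (0.191, 0.151 and 0.168), and with the term for numbers beginning with 33 (0.251, adjusted p = 0.053). KO TAC and Ctrl TAC differed by -0.08 ± 0.07 (adjusted p = 0.586).

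Mybpc2, the fast skeletal myosin-binding protein C, had the largest change among the 9 tested genes in Ctrl hearts. It was at 10.34, 13.03, 12.83 and 12.93 CPM in Ctrl sham and at 16.01, 10.7, 15.03 and 13.14 CPM in KO sham. It was at 34, 44.93, 44.44 and 39.03 CPM in Ctrl TAC and at 32.09, 33.8, 26.06 and 27.91 CPM in KO TAC. TAC libraries were all above sham libraries, and KO TAC lay just below Ctrl TAC, with 33.8 against 34 CPM at the boundary. Mybpc2 rose 3.31-fold in Ctrl (1.73 ± 0.13, adjusted p = 1.81e-07) and 2.18-fold in KO (1.13 ± 0.12, adjusted p = 3.07e-06), and the TAC effects differed by -0.60 ± 0.17 (adjusted p = 0.241, 0.0032 before adjustment). Per kilobase it remained far below Mybpc3, at 11.2 ± 1.43 against 1042 ± 64.7 CPM per kb in Ctrl TAC.

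The skeletal muscle markers, as a sum, were not higher after TAC. Their level was 1590 to 1810 CPM in Ctrl sham, 1620 to 1730 in KO sham, 1480 to 1630 in Ctrl TAC and 1290 to 1450 in KO TAC, and 10 of the 15 were under 1 CPM on average in each group. The sum therefore rests on the few abundant genes of the list and says little of the others. Of the 12 tested, 3 were higher and 2 lower with TAC in Ctrl, against 10.4% and 9.60% of all genes. In KO, 1 was higher and 4 were lower, against 17.8% and 16.5%. Single markers went both ways in Ctrl. Mean Myl1 went from 22.74 CPM in sham to 45.68 CPM after TAC, and Tnnt3 from 0.2683 to 0.7748 CPM. Mylpf went from 0.6039 to 0.5708 CPM and Tnni2 from 0.6255 to 0.495 CPM.

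Heavy chains were also set against Mybpc3 within each library, per kilobase, as a ratio chosen after the values were seen and given without a test. The sum of the 3 heavy chains was 4.35 to 5.11 times Mybpc3 in Ctrl sham and 3.99 to 4.90 times in KO sham. It was 3.13 to 3.34 times in Ctrl TAC and 2.60 to 2.93 times in KO TAC. The groups were separate for TAC against sham in both genotypes and for KO TAC against Ctrl TAC. Against the summed light chains, the heavy chains were at 0.865 ± 0.1 in Ctrl sham, 0.7987 ± 0.082 in KO sham, 0.8287 ± 0.107 in Ctrl TAC and 0.7441 ± 0.0715 in KO TAC, and the ranges of all 4 groups overlapped.

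**Figure D5:**
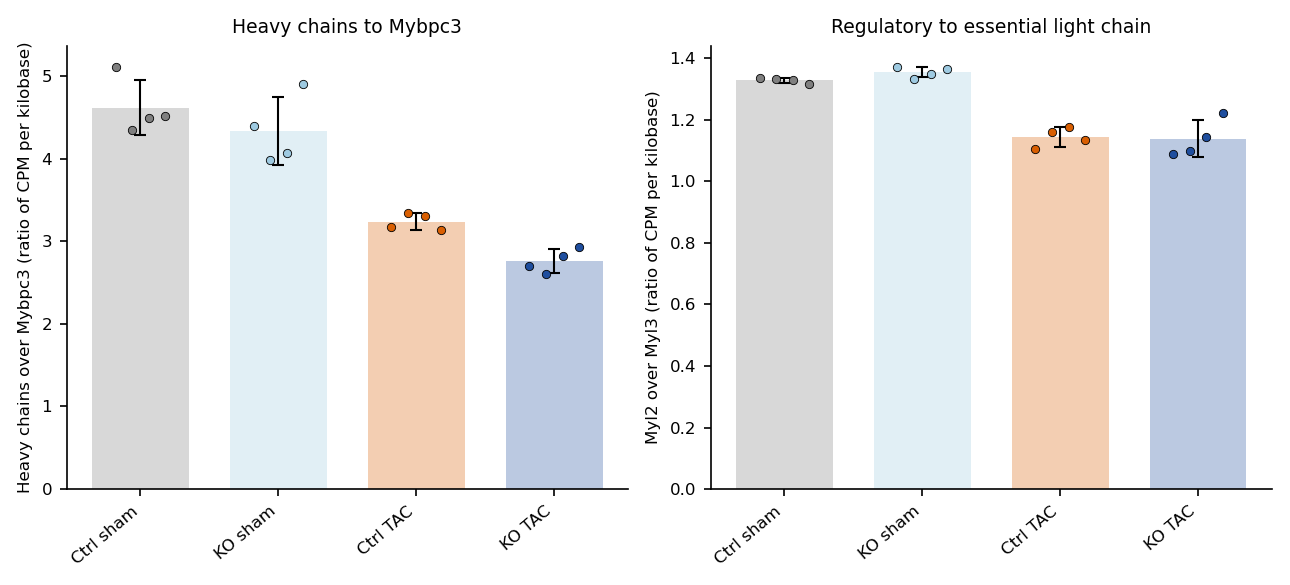
Left, summed heavy chains over Mybpc3, and right, Myl2 over Myl3, both as ratios of CPM per kilobase within a library (vertical axes, from 0) in the 4 groups. Points are libraries, bars are means and error bars are SDs. Both ratios are lower in every TAC library than in any sham library, and only the left one separates KO TAC (2.60 to 2.93) from Ctrl TAC (3.13 to 3.34).

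The other genes of the thick filament and its regulation were described through 6 lists. Their counts stand against 10.4% of all genes higher and 9.60% lower with TAC in Ctrl, 17.8% and 16.5% in KO, and 1.36% and 1.32% between KO TAC and Ctrl TAC. The list of other heavy chains held 12 symbols, of which 7 were tested, and 1 of the 7 was the noncoding Mhrt. Besides Mhrt, 2 heavy chains were higher with TAC in Ctrl and 3 in KO, and Mhrt was the one lower call of the list in either. Myh8, the perinatal skeletal heavy chain, went from 0 to 4 counts per library in Ctrl sham and 0 to 6 in KO sham to 34 to 69 in Ctrl TAC and 53 to 125 in KO TAC (adjusted p = 2.13e-05 in Ctrl and 1.19e-05 in KO). At these counts its fold change has little precision, and 1.6% of its 150-base windows occur in other skeletal heavy chains. Myh10, a nonmuscle heavy chain, rose 1.47-fold in Ctrl (adjusted p = 0.0239, lost without Ctrl sham 1 at 0.503 and without Ctrl TAC 1 at 0.357 on the log2 scale) and 1.61-fold in KO (adjusted p = 0.00378). The third named gene of this list was Mhrt, described above, which was also the only one called between KO TAC and Ctrl TAC, in a call lost in 11 of 26 alternatives.

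Of 6 tested other light chains (8 listed), 4 were higher and none lower with TAC in each genotype, against 10.4% of all genes higher in Ctrl and 17.8% in KO. Myl1, a fast skeletal essential light chain, rose 2.01-fold in Ctrl and 2.53-fold in KO (adjusted p = 0.00979 and 0.000795). Myl6b, another essential light chain, rose 1.77-fold and 2.52-fold, and Myl12a, a nonmuscle regulatory light chain, 1.53-fold and 1.49-fold. With the number series as a term, the log2 rise of Myl6b in Ctrl was 0.214 (adjusted p = 0.542) and that of Myl1 was 0.958 (adjusted p = 0.0719). Myl12a kept its call in Ctrl under that term (0.714, adjusted p = 4.58e-05). The call of Myl6b in Ctrl was also lost without Ctrl TAC 4 (0.675, adjusted p = 0.0585). Myl6, the nonmuscle and smooth muscle essential light chain, was at 94.1 to 112 CPM in Ctrl TAC and 123 to 136 CPM in KO TAC, and was the only one called between genotypes (0.29 ± 0.06, adjusted p = 0.02). Nonmuscle chains are made by stromal cells too, and the fibroblast markers given above moved with them; their part was not tested.

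Of 12 tested light chain kinases and phosphatase subunits, 1 was higher and 1 lower with TAC in Ctrl and 1 was higher and 2 lower in KO, shares near or below those of all genes (10.4% and 9.60%, 17.8% and 16.5%). Mylk4, a heart-enriched kinase of the same family as Mylk3, fell from 382 to 192 CPM on average in Ctrl (-0.99 ± 0.15, adjusted p = 0.00034) and from 343 to 136 CPM in KO (-1.34 ± 0.15, adjusted p = 1.03e-05), and it missed the threshold between KO TAC and Ctrl TAC (-0.50 ± 0.15, adjusted p = 0.0901). Prkca, protein kinase Cα, rose 1.30-fold and 1.36-fold.

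Of 9 tested thick filament and M-band proteins (12 listed), 4 were higher and 1 lower with TAC in Ctrl (10.4% and 9.60% of all genes), and 2 were higher and 2 lower in KO, near the 17.8% and 16.5% of all genes. The myomesins bundle thick filaments at the M-band. Myom3 rose 1.74-fold in Ctrl (adjusted p = 0.00608) from 2.68 CPM, Myom1 rose 1.29-fold (adjusted p = 0.000259) and Myom2 rose 1.21-fold (adjusted p = 0.0467), a call lost in 16 of 26 alternatives. With the number series as a term, Myom3 missed the threshold (0.769 on the log2 scale, adjusted p = 0.0606) and Myom1 kept its call (0.388, adjusted p = 0.00332). Obsl1, an obscurin-like cytoskeletal adaptor, was at 114 to 143 CPM in Ctrl TAC and 96.6 to 104 CPM in KO TAC (-0.29 ± 0.06, adjusted p = 0.0242). Of 10 tested folding and assembly factors, 1 was higher and 1 lower in Ctrl and 1 was higher and 2 lower in KO, shares like those of all genes (10.4% and 9.60%, 17.8% and 16.5%). The myosin methyltransferase Smyd1 was higher in Ctrl TAC (0.24 ± 0.06, adjusted p = 0.00783), and Naca, part of the nascent chain complex at the ribosome, was lower (-0.24 ± 0.05, adjusted p = 0.00234). With the number series as a term, Smyd1 missed the threshold (0.191, adjusted p = 0.117) and Naca kept its call (-0.239, adjusted p = 0.0289).

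Of 32 tested regulators of myosin genes, 5 were higher and 8 lower with TAC in Ctrl, 8 were higher and 9 lower in KO, and 1 was higher and 2 lower in KO TAC than in Ctrl TAC. Of all genes, 10.4% and 9.60%, 17.8% and 16.5%, and 1.36% and 1.32% were higher and lower in these comparisons. Dio2, which converts thyroxine to the active thyroid hormone, was at 0.696, 0.844, 1.40 and 0.919 CPM in Ctrl sham and at 6.28, 3.72, 3.35 and 5.85 CPM in Ctrl TAC. It was at 0.545 to 1.19 CPM in KO sham and 10.1, 12.9, 24.9 and 11.7 CPM in KO TAC. Dio2 was 3.11-fold higher in KO TAC than in Ctrl TAC (1.64 ± 0.30, adjusted p = 0.0163) with no overlap between the groups. Hopx, a homeodomain cofactor that restrains SRF, fell by 0.56 with TAC in Ctrl and by 1.17 in KO on the log2 scale, and was at 82.2 to 106 CPM in KO TAC against 109 to 166 CPM in Ctrl TAC (-0.54 ± 0.11, adjusted p = 0.0221). Rxrg, a retinoid X receptor and partner of the thyroid hormone receptors, was also lower in KO TAC (-0.28 ± 0.07, adjusted p = 0.0335). Tbx5, a cardiac T-box factor, fell to 0.614 and 0.626 of its sham level with TAC in Ctrl and KO (adjusted p = 9.92e-05 and 5.92e-05).

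The calls between KO TAC and Ctrl TAC outside the 10 genes rested on the same libraries. With the number series as a term, Myl6 (adjusted p = 0.117), Obsl1 (0.124), Dio2 (0.104), Hopx (0.146), Rxrg (0.184), Mhrt (0.133) and the Mir208b row (0.112) all missed the threshold of edgeR. Without Ctrl TAC 2 they missed it too, at adjusted p values of 0.0719 for Myl6, 0.0756 for Obsl1, 0.0704 for Dio2, 0.0879 for Hopx, 0.0912 for Rxrg, 0.0799 for Mhrt and 0.0722 for Mir208b. All 7 kept their direction under every alternative tried.

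Over 10074 named genes, all at a mean log2 CPM of 2 or more, those most like each heavy chain over the 16 libraries were found by Pearson correlation of log2 CPM, as a description in which all points share the 4 groups. Myh6 was most like Ift172 (r = 0.978), Pygm, the muscle glycogen phosphorylase (0.975), and Ubr2 (0.972), with 0.838, 0.794 and 0.830 once group means were subtracted. Myh7 was most like Adamts1, Creb3l2 and Cttn (0.952, 0.949 and 0.949), with 0.649, 0.693 and 0.680 within groups. Myh7b was most like Abcc5 (0.947, within groups 0.807), Lrg1 (0.917, 0.701) and Neurl4 (0.913, 0.667). Between the heavy chains themselves, Myh6 and Myh7 had r = -0.77 over all libraries and 0.10 within groups, and Myh6 and Myh7b had 0.79 and 0.03. Myl2 and Myl3 had 0.84 over all libraries and 0.88 within groups, the highest within-group value of the 36 pairs of tested genes.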

How the data were processed

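Poly(A) RNA of 16 mouse hearts was sequenced as 150-base pairs. The authors deposited a table of raw counts per gene. The submitters' processing notes name cutadapt 2.3, FastQC, HISAT2 2.1.0, edgeR 3.26.1 and GRCm38. The counting tool, annotation and strand setting are not given in the sources used here. Gene names and positions came from GENCODE release 21, which matched 99.4% of the 55487 identifiers. Each of the 16 animals gave 1 library, and replicate numbers only name samples.

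Counts were filtered with filterByExpr (18275 genes kept, Myl7 not), scaled by trimmed means (TMM) and fitted over all 4 groups with the quasi-likelihood test of edgeR 4.0.16 (R 4.3.3), with Benjamini-Hochberg adjustment over all genes and a threshold of 0.05. CPM are on the same scale, and SEs are those of log2 fold changes. Shares were tested by exact two-sided permutation of library labels (70 relabellings, scipy 1.17.1). For the difference of TAC effects, genotype was relabelled within sham and within TAC (4900 relabellings). The p of that test is exact only if genotype has no effect at either load, not merely if the TAC effects are equal. Alternatives were DESeq2 1.42.0, other scalings, filters and terms, and leaving out libraries. Scripts were tested on simulated data. Coverage per library (53169437 to 79404714 counts) puts counting error far under the spread between animals except for rows at low counts. Among these are Myl4, Myl7, Myh8, Gm29015, the hairpin rows and the atrial and skeletal markers under 1 CPM.

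The genes, lists and tests were chosen with earlier results of these data known. Named were all 10 genes, the 3 genes of each list with the largest change among those called for TAC in Ctrl, up to 3 per list called for genotype under TAC, and the 3 genes most like each of Myh6, Myh7 and Myh7b.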

Additional observations from a re-analysis of the deposited data

Results flagged for a closer look

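In 10 of 88 groups of 4 libraries examined, 1 library lay apart from the other 3 (its gap to the nearest over the range of all 4 was above Dixon's 95% critical value, which chance gives in about 1 group in 20). Myl3 was at 3626 CPM in Ctrl sham 3 against 3989 to 4034 CPM in the others. Mybpc2 was at 10.34 CPM in Ctrl sham 1 against 12.83 to 13.03 CPM. Myl7 was at 0 CPM in Ctrl sham 3 against 0.0975 to 0.117 CPM, and at 0.8218 CPM in Ctrl TAC 2 against 0 to 0.0836 CPM. The Myl7 share of Myl2 plus Myl7 was 0.01943% in Ctrl TAC 2 against 0 to 0.00205%. Mir499 was at 0.01392 CPM in Ctrl sham 1, at 0 CPM in KO sham 1 and at 0.01494 CPM in Ctrl TAC 2, all of them at most 1 count from the other libraries. The targeted RNA Gm12295 was at 8.02 CPM in Ctrl TAC 1 against 2.69 to 3.37 CPM, and at 4.55 CPM in the library labelled KO TAC 4 against 0.276 to 0.371 CPM.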

How the results depend on the processing

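Against 7 calls among the 9 genes for TAC in Ctrl, 8 for TAC in KO and 2 for KO against Ctrl in TAC, an adjusted p under 0.01 gave 4, 5 and 0. The number-series term gave 4 for TAC in Ctrl and 0 for KO against Ctrl in TAC, and a term for numbers beginning with 33 gave 5 for TAC in KO. Over all genes, the 3652 calls for TAC in Ctrl became 2479 with the number-series term. The 6271 for TAC in KO became 4831 with the 33 term and 4222 at an adjusted p under 0.01. KO against Ctrl in TAC gave 1 call in a fit to its 8 libraries and 1 without Ctrl TAC 2 and KO TAC 4, and the interaction gave 1 with DESeq2. Leaving out single libraries gave 4 to 7, 6 to 8, 0 (sham), 0 to 3 and 0 to 1 (interaction) calls. Over all genes, these fits gave 2694 to 3719 calls for TAC in Ctrl and 5374 to 6495 for TAC in KO. For KO against Ctrl they gave 0 to 2 in sham and 63 to 733 in TAC. Over all genes, the 489 calls for KO against Ctrl in TAC became 1691 on the cardiomyocyte-marker scale, 1180 with DESeq2, 285 with no filter, 154 in a fit to 8 libraries, 109 without Ctrl TAC 2 and KO TAC 4, 19 at an adjusted p under 0.01 and 12 with the number-series term, and the 3652 for TAC in Ctrl became 2076 at an adjusted p under 0.01. The 2 calls for the interaction became 132 with DESeq2, 10 on the cardiomyocyte-marker scale and 0 to 18 with single libraries left out. Counts per kilobase left every share on its side of the threshold. On the log-odds scale the Myl7 share in Ctrl turned to -0.128 and the Myl4 share for KO against Ctrl in TAC to 0.00992. Without Ctrl TAC 2 and KO TAC 4 these were -0.000913 and 0.00131.

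Leaving out single libraries, the Myh7 share differences ran from -0.166 to 0.38 points for KO against Ctrl in sham and from 3.59 to 6.65 for the interaction. Those of the Myl7 share ran from -0.000913 to 0.00556 (TAC in Ctrl), -0.000375 to 0.000404 (KO in sham) and -0.00637 to 0.000102 (KO in TAC), and those of the Myl4 share from -0.00383 to 0.000201 (KO in sham), -0.00396 to 0.00364 (KO in TAC) and -0.00181 to 0.00579 (interaction).

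Single uncalled log2 fold changes turned sign near 0. On total counts, which shift the median of all genes by 0.111 for TAC in Ctrl and 0.158 in KO, these were Myh7b 0.064 and Myl3 0.104 (TAC in Ctrl). With no filter Myl3 was 0. With the 33 term they were Myl3 0.011, and in sham Myh7 0.049 and Myl4 0.041. Without Ctrl TAC 2 and KO TAC 4, Myl3 was 0.01. On the cardiomyocyte-marker scale, which shifts the median by 0.115 for KO against Ctrl in TAC, Mybpc3 was 0.04 in that comparison, and Myl4 0.014 and Mybpc3 0.003 for the interaction. Leaving out single libraries gave -0.142 to 0.074 (Myh7b) and -0.061 to 0.029 (Myl3) for TAC in Ctrl, and in sham -0.115 to 0.005 (Myh6), -0.039 to 0.045 (Myh7), -0.109 to 0.063 (Myl4), -0.112 to 0.004 (Mylk3) and -0.005 to 0.093 (Mybpc3). The cause was not tested. Shares could not be computed without the libraries numbered from 25 or 33 where a group then held 1 library. No paired analysis was possible because replicate numbers only follow accession order.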
